A study of Arabidopsis thaliana with 12 samples.

Results

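The heat shock proteins described here are 10 Arabidopsis genes, taken by their AGI identifiers from the 27371 genes of the deposited table. They are the small heat shock proteins HSP17.6A (AT5G12030), HSP17.6II (AT5G12020), HSP17.4 (AT3G46230), HSP17.6C (AT1G53540), HSP18.2 (AT5G59720), HSP21 (AT4G27670), HSP22 (AT4G10250) and HSP23.6 (AT4G25200), together with HSP90.1 (AT5G52640) and HSP101 (AT1G74310). RNA-seq was performed on whole seedlings of ecotype Columbia-0, 14 d old, in 4 groups of 3 biological replicates. The groups were WT mock, Atg3bp1 mock, and both genotypes at 24 h after spraying with Pst hrcC-, bacteria of Pseudomonas syringae that lack a working type III secretion system, named WT hrcC and Atg3bp1 hrcC below. Atg3bp1 is a mutant of the RNA-binding protein AtG3BP1, and the study's text gives the sequenced line as Atg3bp1-1, a T-DNA insertion line. The mutant was thus 1 allele, and the labels name no heat treatment for any group.

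The level of the targeted gene goes against the labels. AtG3BP1 (AT5G48650) had between 0.0179 and 0.426 FPKM (fragments normalised to the length of the transcript and to the mapped fragments in that library) in the 6 libraries labelled WT, and between 11.4 and 18.4 FPKM in the 6 libraries labelled Atg3bp1. Genotypes are therefore named here as the libraries labelled WT and the libraries labelled Atg3bp1, and every genotype direction below rests on those labels. Library sums of FPKM ran from 428556 to 494126, and AT2G01021 took 4.03% to 31.6% of that sum. No read counts can be had from these values, so the depth behind each of them is unknown. The 6 leaf markers were present in every library, at a summed 17120 to 30978 FPKM.

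When proteins unfold, heat shock factors (HSFs) bind heat shock elements upstream of chaperone genes and switch them on. Small heat shock proteins hold unfolding clients without using ATP, HSP101 pulls aggregated proteins apart, and HSP90 helps to mature signalling proteins, among them immune receptors of the NLR type. In unstressed leaves most of these inducible genes are nearly silent, while the constitutive HSP70 and HSP90 proteins are abundant. G3BP proteins of animals are stress granule components, and plant small heat shock proteins and HSP101 form or act on granules of their own during heat.

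The heat shock element is built from GAA units in alternating orientation, and it is shown here because it is the site through which heat shock genes are known to be switched on. In the 500 bases before the start codon of the TAIR10.1 models, either pair of adjacent units, GAANNTTC or TTCNNGAA (each is its own reverse complement), was found in 10 of the 10 genes and in 33.7% of 26693 protein-coding genes of the table. The element of 3 units, GAANNTTCNNGAA on one strand and TTCNNGAANNTTC on the other, contains both pairs and was found in 5 of the 10 genes and in 1.19% of those 26693. Neither is particular to the 10 genes: among 10 HSP70 genes 9 held a pair and 6 the element of 3, and among 10 other small heat shock protein genes 8 held a pair and 0 the element of 3. The 6 copies in these 5 genes are given 5′ to 3′ on the strand of the gene, with 8 flanking bases on each side and the element in capitals. The sequences are from RefSeq TAIR10.1.
HSP17.4, chr3:16984865-16984893, minus strand, nearer copy: agaaacctGAAATTTCAAGAAacttgcag
HSP17.4, chr3:16984946-16984974, minus strand, farther copy: tcaacataGAAGCTTCTTGAAgccacctg
HSP17.6C, chr1:19980238-19980266, plus strand: caacaccaGAAACTTCTTGAAagcacctg
HSP18.2, chr5:24062388-24062416, plus strand: caacaaacGAAACTTCCTGAAatgccaag
HSP22, chr4:6370379-6370407, plus strand: aaagatatTTCAAGAAACTTCttcattct
HSP90.1, chr5:21352254-21352282, plus strand: aacgaaaaGAACTTTCTGGAAttcgtttg

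These copies lie between 137 and 282 bases before the start codon. The copies of HSP18.2 and HSP22 lie within the annotated transcribed region, and the other 4 lie before it. In HSP17.6A, HSP17.6II, HSP21, HSP23.6 and HSP101 the window held a pair of units and no element of 3. For HSP101 the whole window, chr1:27939863-27940362, lies within the annotated transcribed region, which ends at 27940369. The sequence before its transcript was therefore not searched. A match to these letters describes the sequence and is not a measured binding site.

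The 10 genes had low levels in these seedlings, and HSP18.2 was the most abundant of them. Over the 12 libraries the mean was 3.77 FPKM for HSP18.2, 1.33 for HSP101, 1.04 for HSP90.1 and 1.01 for HSP17.4, and these 4 genes passed the filter of a mean of at least 1 FPKM that was set for the tests. The other 6 had means of 0.674 (HSP17.6C), 0.584 (HSP17.6A), 0.471 (HSP17.6II), 0.0938 (HSP23.6), 0.0208 (HSP21) and 0.0162 FPKM (HSP22). The filter lies close to the values, between HSP17.4 at 1.01 and HSP17.6C at 0.674. Without the first replicate of WT mock the mean of HSP17.4 was 0.716 and that of HSP90.1 was 0.967, so both passed only with that library. Without it HSP18.2 had a mean of 3.24, HSP101 of 1.24, HSP17.6C of 0.514, HSP17.6A of 0.449 and HSP17.6II of 0.353 FPKM. FPKM are per transcript length, so these levels can be compared between genes. The ranges over libraries of neighbours in this order overlapped throughout.

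Of the 120 values of the 10 genes, 38 were listed at 0. A listed 0 can be a failed estimate: the chloroplast transcripts ATCG00220, ATCG00550, ATCG00560 and ATCG00700, which green cells use, were also listed at 0 in 2 to 4 of the 12 libraries. Those are not nuclear genes, so they do not show which zeros of the 10 genes, if any, are failed estimates. HSP18.2, HSP90.1 and HSP101 were above 0 in every library, and only for these are means with SD given.

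Among the genes described here, HSP17.4, HSP17.6C and HSP18.2 are small heat shock proteins of class I, which are cytosolic. HSP18.2, chr5:24062323-24063300 on the plus strand in TAIR10.1, is a gene of 1 exon with 161 codons. In replicates 1, 2 and 3 it had 9.63, 2.36 and 3.04 FPKM in WT mock, 3.54, 1.96 and 1.96 in Atg3bp1 mock, 2.08, 2.96 and 3.69 in WT hrcC, and 2.64, 7.46 and 3.94 in Atg3bp1 hrcC. The first WT mock library and the second Atg3bp1 hrcC library stood above the others, and all groups overlapped. The group means were 5.01 ± 4.01, 2.49 ± 0.913, 2.91 ± 0.808 and 4.68 ± 2.50 FPKM (SD, n = 3), and the SD was largest in the 2 groups that hold those libraries. Without the first library the WT mock mean was 2.70 FPKM for HSP18.2 (n = 2).

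HSP17.4, chr3:16984118-16984867 on the minus strand, also has 1 exon, with 156 codons. It had 4.23, 0 and 0.942 FPKM in WT mock, 0.587, 0.806 and 0 in Atg3bp1 mock, 0, 0.724 and 0.120 in WT hrcC, and 1.45, 2.89 and 0.366 in Atg3bp1 hrcC. The same pair of libraries was highest as for HSP18.2, and 3 libraries of 3 different groups were listed at 0. HSP17.6C, chr1:19980299-19981199 on the plus strand, had 2.43, 0 and 0.216 FPKM in WT mock, 0, 0.124 and 1.09 in Atg3bp1 mock, 1.98, 0.0703 and 0.484 in WT hrcC, and 0.298, 1.12 and 0.281 in Atg3bp1 hrcC. Here the first WT hrcC library was the next highest after the first WT mock library.

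The class II proteins HSP17.6A and HSP17.6II, also cytosolic, are neighbours on the minus strand of chromosome 5, at chr5:3883957-3884838 and chr5:3882231-3883111, with 845 bases and no other protein-coding gene between them. HSP17.6A had 2.07, 0.459 and 0.260 FPKM in WT mock, 0.630, 0.512 and 0 in Atg3bp1 mock, 0, 0.292 and 0.251 in WT hrcC, and 0.432, 1.82 and 0.291 in Atg3bp1 hrcC. HSP17.6II had 1.78, 0 and 0 FPKM in WT mock, 0, 0.223 and 0.196 in Atg3bp1 mock, 1.11, 0.126 and 0.0936 in WT hrcC, and 0.591, 1.29 and 0.253 in Atg3bp1 hrcC. For both genes the first WT mock library was highest and the second Atg3bp1 hrcC library next.

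The 2 coding sequences of this class II pair were identical at 86.6% of the bases of the longer one, the closest pair among the 8 small heat shock protein genes. HSP17.4 and HSP17.6C followed with 85.0%, and HSP18.2 was 77.8% identical to HSP17.6C and 77.0% to HSP17.4. HSP90.1 was 79.3% identical to its constitutive relative HSP90.3. The longest exact run that any of these genes shared with another of its family was 33 bases, against reads cut to 100 bases, and UTRs were not compared. How far reads were exchanged between these copies was not tested.

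The small heat shock proteins of the organelles were listed at 0 in most libraries. HSP21, which protects chloroplast proteins, was listed at 0 in 10 of 12 libraries, with 0.0325 FPKM in the second Atg3bp1 mock library and 0.217 in the first Atg3bp1 hrcC library. HSP22, of the endomembrane system, was listed at 0 in 11 libraries and had 0.194 FPKM in the third WT hrcC library. HSP23.6, of mitochondria, was listed at 0 in all 6 libraries labelled WT. In the libraries labelled Atg3bp1 it had 0.290, 0.139 and 0 FPKM in mock and 0.0667, 0.235 and 0.395 after hrcC. These values are below 0.4 FPKM, and HSP23.6 was not among the genes tested with adjustment.

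HSP90.1, the heat-inducible HSP90 of the cytosol at chr5:21352557-21355147 on the plus strand, had 1.87, 0.716 and 1.16 FPKM in WT mock and 0.7004, 1.41 and 0.508 in Atg3bp1 mock. After hrcC it had 0.252, 0.662 and 0.938 FPKM in the libraries labelled WT and 1.37, 1.54 and 1.37 in those labelled Atg3bp1. The Atg3bp1 hrcC libraries thus lay close together, at 1.43 ± 0.0970 FPKM (SD, n = 3), and above the 3 WT hrcC libraries, at 0.618 ± 0.345. The mock groups overlapped, at 1.25 ± 0.580 under the label WT and 0.873 ± 0.476 under the label Atg3bp1. Without the first library the WT mock mean of HSP90.1 was 0.939 FPKM (n = 2).

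HSP101, the disaggregase needed for acquired thermotolerance, lies at chr1:27936508-27940369 on the minus strand and has 911 codons. It had 2.39, 1.13 and 1.86 FPKM in WT mock, 1.65, 1.35 and 1.31 in Atg3bp1 mock, 0.849, 1.29 and 1.19 in WT hrcC, and 1.34, 1.03 and 0.616 in Atg3bp1 hrcC. Its group means were 1.79 ± 0.629, 1.44 ± 0.186, 1.11 ± 0.231 and 0.996 ± 0.365 FPKM (SD, n = 3) in that order, and the hrcC and mock libraries overlapped under both labels. Without the first library the WT mock mean of HSP101 was 1.496 FPKM (n = 2).

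**Figure D1:**
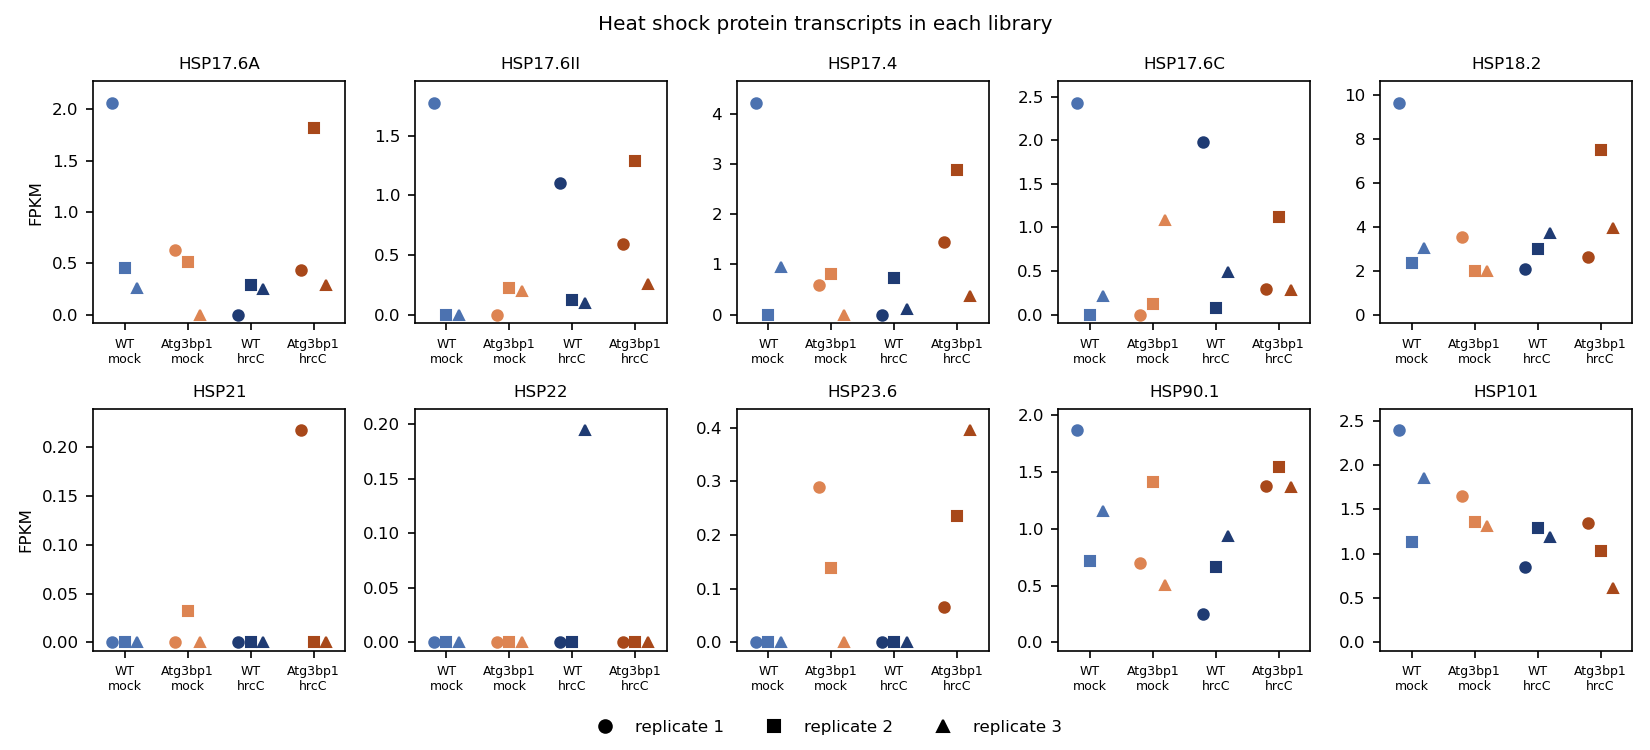
FPKM of each of the 10 genes (y axis, its own scale in each panel) in the 4 groups (x axis), with a symbol for each replicate. The first WT mock library is the highest point in 7 of the 10 panels, at 9.63 FPKM for HSP18.2, and HSP21 and HSP22 are listed at 0 nearly throughout.

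The first WT mock library stood apart in these genes. After division of each library by its upper-quartile factor, it was the highest of 12 for 7 of the 10 genes. It was also the highest for 20.6% of the 17158 genes that passed the filter, the largest share of any library, but 6 of the 10 genes are not in that set and HSP17.4 and HSP90.1 are in it only through this library. In it HSP18.2 was 3.63 times and HSP17.4 6.84 times its median over the 12 libraries, and HSP90.1 and HSP101 were 2.11 and 1.94 times theirs. The summed level of the 10 genes was 24.4 FPKM in this library and 17.38 in the second Atg3bp1 hrcC library, against 4.67 to 8.40 in the other 10. The same library had the highest sum of leaf markers, 30978 FPKM against at most 27732 elsewhere, and the lowest sum of root markers among the mock libraries, 17.42 FPKM against 22.8 to 45.7. The part of these tissues in its heat shock levels was not tested. The fitted differences of the 4 tested genes that use WT mock are given below with and without this library.

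**Figure D2:**
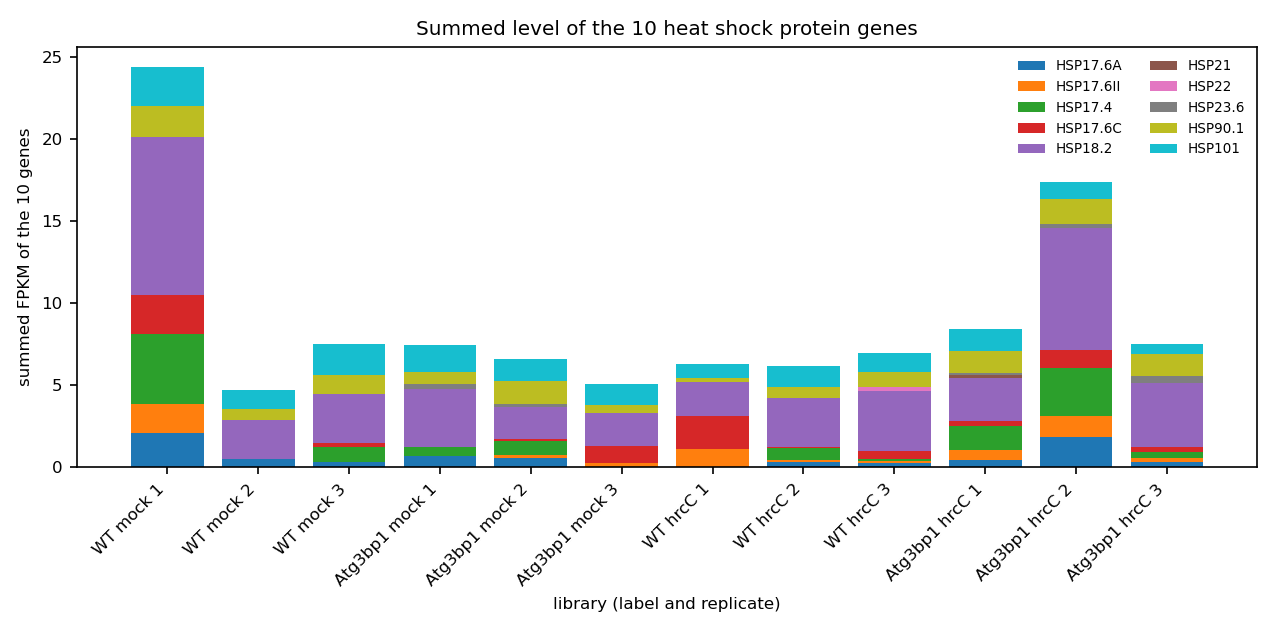
Summed FPKM of the 10 genes (y axis, from 0) in each of the 12 libraries (x axis), with a colour for each gene. The first WT mock library reaches 24.4 and the second Atg3bp1 hrcC library 17.38, and the others lie between 4.67 and 8.40, with HSP18.2 the largest share in most of them.

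The first question was whether the nonvirulent bacteria changed these genes in seedlings labelled WT. With a call set at 2-fold and a Benjamini-Hochberg adjusted p no higher than 0.05, limma called none of the 4 genes tested, against 3.19% of all genes. None of the 4 had an unadjusted p below 0.05, against 17.7% of all genes. On the scale of log2(FPKM + 1) after rescaling, the difference between hrcC and mock was −0.79 for HSP17.4 (SE 0.55, 95% interval −1.99 to 0.40, adjusted p = 0.50) and −0.44 for HSP18.2 (SE 0.45, −1.43 to 0.54, adjusted p = 0.67). It was −0.45 for HSP90.1 (SE 0.26, −1.01 to 0.11, adjusted p = 0.41) and −0.38 for HSP101 (SE 0.23, −0.87 to 0.12, adjusted p = 0.43). The libraries of the groups did not separate for any of the 4 genes that passed, against 17.2% of all genes that passed, nor for the other 6. Without the first WT mock library, a count added after the data were seen, they separated for 0 of the 4, against 29.8%, and for HSP17.6II, whose other WT mock libraries were both listed at 0. Without the first WT mock library the 4 differences were −0.10, 0.15, −0.20 and −0.16 in the same order.

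In the libraries labelled Atg3bp1, none of the 4 genes was called after hrcC, against 3.12% of all genes. The limma difference was 0.76 for HSP17.4 (SE 0.55, 95% interval −0.44 to 1.95, adjusted p = 0.60), 0.68 for HSP18.2 (SE 0.45, −0.31 to 1.66, adjusted p = 0.56) and 0.44 for HSP90.1 (SE 0.26, −0.13 to 1.00, adjusted p = 0.49). For HSP101 it was −0.29 (SE 0.23, −0.79 to 0.20, adjusted p = 0.63). After rescaling, 1 of the 4 genes, HSP90.1, did not overlap between hrcC and mock, against 29.2% of all genes that passed. It was higher after hrcC by the narrow margin of 1.412 against 1.407, and its FPKM as deposited overlapped, at 1.372 against 1.411. HSP17.6II, below the filter, did not overlap either, with a mock library listed at 0. Without the second Atg3bp1 hrcC library the difference was 0.40 for HSP17.4, 0.37 for HSP18.2, 0.42 for HSP90.1 and −0.30 for HSP101.

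The second question was whether the genotypes differed. In mock, none of the 4 genes was called between the labels, against 0.979% of all genes. None of the 4 was apart, against 27.8% of all genes that passed, nor was any of the other 6. Without the first WT mock library, again a count added after the data were seen, 0 of the 4 were apart, against 49.5%. The difference of Atg3bp1 from WT was −0.61 for HSP17.4 (SE 0.55, 95% interval −1.80 to 0.58, adjusted p = 0.55) and −0.54 for HSP18.2 (SE 0.45, −1.52 to 0.45, adjusted p = 0.52). It was −0.21 for HSP90.1 (SE 0.26, −0.78 to 0.35, adjusted p = 0.66) and −0.10 for HSP101 (SE 0.23, −0.60 to 0.39, adjusted p = 0.82). Without the first WT mock library all 4 differences turned to values above 0, at 0.08, 0.06, 0.03 and 0.11.

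After hrcC, none of the 4 genes was called, against 0.0117% of all genes. HSP90.1 had the lowest p of the 4, with a limma difference of 0.67 in the libraries labelled Atg3bp1 against those labelled WT (SE 0.26, 95% interval 0.11 to 1.23), an unadjusted p of 0.023 and an adjusted p of 0.90. HSP17.4 differed by 0.94 (SE 0.55, −0.25 to 2.13, adjusted p = 0.93), HSP18.2 by 0.58 (SE 0.45, −0.40 to 1.57, adjusted p = 0.95) and HSP101 by −0.02 (SE 0.23, −0.51 to 0.47, adjusted p = 0.99). Without the second Atg3bp1 hrcC library the differences were 0.59 for HSP17.4, 0.28 for HSP18.2, 0.66 for HSP90.1 and −0.03 for HSP101. After rescaling, 1 of the 4 genes, HSP90.1, did not overlap between the labels and was higher under the label Atg3bp1, against 11.2% of all genes that passed. Below the filter, HSP17.6A and HSP23.6 did not overlap either. In both the WT hrcC group included listed zeros, and the FPKM of HSP17.6A as deposited overlapped, at 0.291 against 0.292.

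The response of the libraries labelled Atg3bp1 minus that of the libraries labelled WT was tested as an interaction, where 0% of all genes and none of the 4 were called. The interaction was 1.55 for HSP17.4 (SE 0.77, 95% interval −0.14 to 3.24), 1.12 for HSP18.2 (SE 0.64, −0.27 to 2.51), 0.89 for HSP90.1 (SE 0.37, 0.09 to 1.68) and 0.08 for HSP101 (SE 0.32, −0.61 to 0.77), each with a limma adjusted p of at least 0.99. For HSP90.1 the unadjusted p was 0.032. Without the first WT mock library these values were 0.86, 0.53, 0.64 and −0.14. The 5 comparisons share their groups, so they are not independent of each other.

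**Figure D3:**
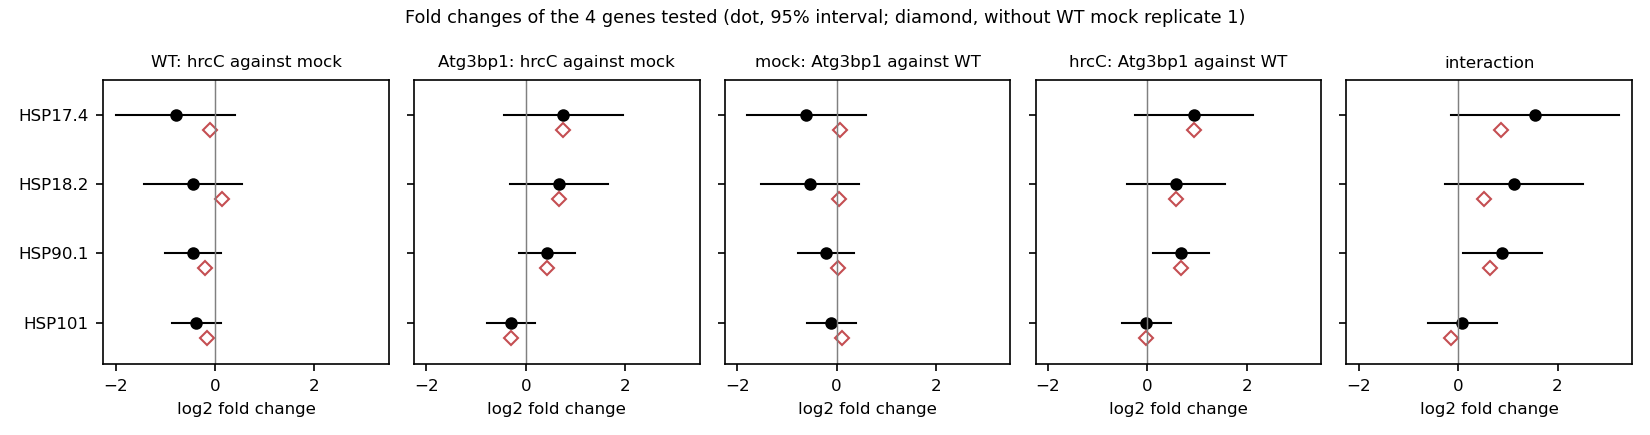
Log2 fold changes (x axis, log2(FPKM + 1) scale) of the 4 genes that passed the filter (y axis) in the 4 comparisons and their interaction; dots with lines are limma estimates with 95% intervals, and diamonds are estimates without the first WT mock library. The intervals cross 0 except for HSP90.1 after hrcC (0.11 to 1.23) and in the interaction (0.09 to 1.68).

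Markers of other tissue were compared with the same groups. The summed level of 9 seed and embryo markers ran from 0 to 1.52 FPKM in the libraries labelled WT and from 2.197 to 4.26 in those labelled Atg3bp1. That difference was mostly PAP85 (AT3G22640), the only one of the 9 that passed the filter, with 0.0504 to 0.147 FPKM in WT mock and 2.73 to 3.89 in Atg3bp1 mock. CRC and SESA3 were at 0 in all 12 libraries, EM1 was above 0 only in libraries labelled WT, and EM6 reached 0.521 FPKM in WT mock and 0.404 in Atg3bp1 mock. PAP85, a vicilin-like seed protein, was called higher under the label Atg3bp1 in mock, by 1.96 on the log2 scale (limma adjusted p = 0.0091). The 6 root markers summed to between 14.6 and 45.7 FPKM, highest in Atg3bp1 mock. The part of these tissues in the differences of the heat shock genes, HSP23.6 included, was not tested.

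The inducible genes were low beside the constitutive chaperones of the same seedlings. HSC70-1 (AT5G02500), the main cytosolic HSP70, had a mean of 435.3 FPKM over 12 libraries, with 308.8 to 591 in single libraries, and HSP90.2 (AT5G56030), a constitutive HSP90, had 57.2 with 38.6 to 88.9. The lowest HSP90.2 library thus exceeded the highest HSP90.1 library, at 1.87 FPKM. Of the companion genes, 78 were listed in 7 groups, 77 of them are analysed here and 64 passed the filter. The median of the mean levels of those 64 was 8.36 FPKM.

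**Figure D4:**
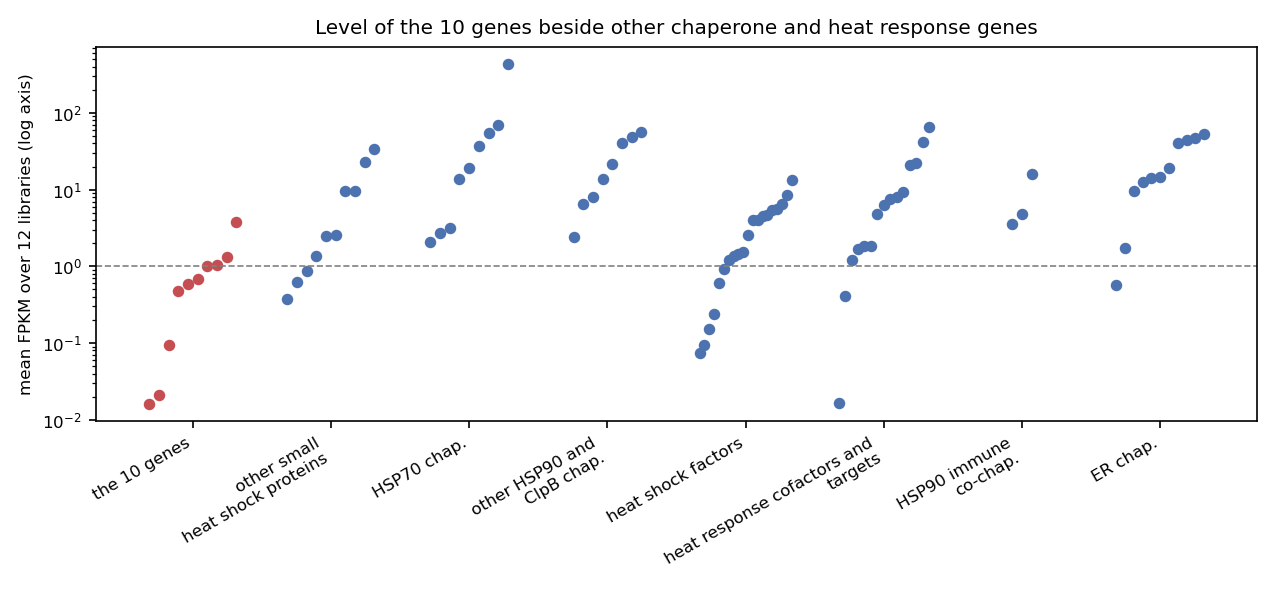
Mean FPKM over 12 libraries (y axis, log scale) of each gene in the groups named on the x axis, with the 10 heat shock genes in red and the filter of 1 FPKM as a dashed line; HSP70T-1, at 0 in all libraries, is not drawn. The 10 genes lie between 0.0162 and 3.77 FPKM, below most members of the other chaperone groups.

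None of the heat shock factors tested was called. Of the heat shock factors, 20 genes are analysed here and 14 passed the filter. HSFB1 (AT4G36990) was also listed but is not analysed, as no values were found for it. None of the 14 passed both limits in any of the 5 comparisons, where 0% to 3.19% of all genes did. At most 2 of the 14 had an unadjusted limma p below 0.05 in a comparison, where 4.40% to 21.1% of all genes did. HSFA2, an amplifier of the heat response that is itself heat-induced, had a mean of 0.154 FPKM and at most 0.636, in the first WT mock library, at 8.18 times its median. The constitutive activators HSFA1A, HSFA1B, HSFA1D and HSFA1E had means of 2.57, 4.002, 1.55 and 1.38 FPKM. HSFA7A (AT3G51910) was the most abundant of the 20 factors analysed, with a mean of 13.5 FPKM. It had 1.80 FPKM in the first WT mock library and 9.46 to 20.0 in the other 11, so it was lowest where 7 of the 10 heat shock genes and HSFA2 were highest. HSFC1, named after its values were seen, was also highest in that library, at 2.65 times its median.

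None of the 9 HSP70 genes, 8 HSP90 and ClpB genes, 3 HSP90 co-chaperones of immunity or 10 ER chaperones that passed the filter was called in any comparison. Of all genes, 0% to 3.19% were called in a comparison, so groups this small could have no call at that share. At most 1 gene of each group had an unadjusted limma p below 0.05 in a comparison, where 4.40% to 21.1% of all genes did. SGT1B (AT4G11260), which works with HSP90 on immune receptors, had a mean of 15.9 FPKM and a range of 10.4 to 29.0. BIP1 (AT5G28540), the HSP70 of the ER, had a mean of 53.4 FPKM and a range of 35.3 to 74.2. The first WT mock library was the highest for 6 of the 9 HSP70 genes and for 5 of the 8 other HSP90 and ClpB genes. It was the highest for 20 of all 64 companions, that is 31.2% of them, beside 20.6% of all genes that passed the filter.

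Of the wider group, AT1G54050 and GolS1 were called higher after hrcC. AT1G54050, annotated as an HSP20-like chaperone, had 5.64, 2.65 and 3.52 FPKM in Atg3bp1 mock and 7.55, 11.2 and 8.87 in Atg3bp1 hrcC. It rose by 1.11 on the log2 scale (SE 0.25, limma adjusted p = 0.028), the only called gene of 7 other small heat shock proteins that passed the filter. Under the label WT it had 11.99, 8.37 and 8.74 FPKM in mock and 18.21, 12.9 and 15.44 after hrcC, a difference of 0.63 (SE 0.25, adjusted p = 0.22). In mock it was lower in the libraries labelled Atg3bp1 than in those labelled WT with no overlap, where 27.8% of all genes that passed did not overlap. The difference of −1.04 was not called (SE 0.25, limma adjusted p = 0.066). It was called without replicate 1 of WT hrcC (adjusted p = 0.044) and when only genes averaging 5 FPKM were tested (adjusted p = 0.0497). It was also called with a term for libraries with high scaling factors (−1.25, adjusted p = 0.035). That term marks replicates 2 and 3 of WT mock and replicate 1 of WT hrcC. In mock it is thus tied to the label WT and leaves only replicate 1 of WT mock unmarked. That fit is therefore no separate check of the mock difference. The interaction was 0.48 (SE 0.36, adjusted p = 0.99). The call under the label Atg3bp1 was lost without the second mock library (0.90, adjusted p = 0.14), the third mock library (1.11, adjusted p = 0.088), the second hrcC library (1.01, adjusted p = 0.11) or the third hrcC library (1.08, adjusted p = 0.11).

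AT2G29500, a further HSP20-like gene that is 71.6% identical to HSP18.2 in its coding sequence, did not reach the 2-fold limit and was named after its values were seen. It had 6.42, 7.61 and 6.37 FPKM in WT mock and 10.7, 12.8 and 14.6 in WT hrcC, with a difference of 0.81 (SE 0.21, limma adjusted p = 0.051). These groups did not overlap, against 17.2% of all genes that passed. It had 8.16, 6.28 and 4.98 FPKM in Atg3bp1 mock and 11.8, 15.0 and 9.90 in Atg3bp1 hrcC, a difference of 0.86 (SE 0.21, adjusted p = 0.038). It passed both limits without the first WT hrcC library (1.01, adjusted p = 0.011) and, under the label Atg3bp1, without the first mock library (1.01, adjusted p = 0.038).

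GolS1 (AT2G47180), a galactinol synthase that HSFs are known to switch on in heat, rose under both labels. It went from 17.9 ± 2.86 to 74.4 ± 20.2 FPKM (SD, n = 3) in the libraries labelled WT and from 18.1 ± 7.60 to 55.1 ± 17.7 in those labelled Atg3bp1. The limma log2 differences were 1.98 (SE 0.33, adjusted p = 0.0039) and 1.62 (SE 0.33, adjusted p = 0.014), and all hrcC libraries lay above all mock libraries. Under the labels WT and Atg3bp1, 17.2% and 29.2% of all genes that passed did not overlap between hrcC and mock. The second call was lost without the second Atg3bp1 mock library (1.58, adjusted p = 0.065), the third (1.38, adjusted p = 0.066) or the second Atg3bp1 hrcC library (1.41, adjusted p = 0.067). GolS1 was the only gene called among 13 tested cofactors and targets of the heat response. The median of those 13 was −0.37 in the libraries labelled WT and −0.09 in those labelled Atg3bp1, beside −0.06 and −0.07 over all genes.

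**Figure D5:**
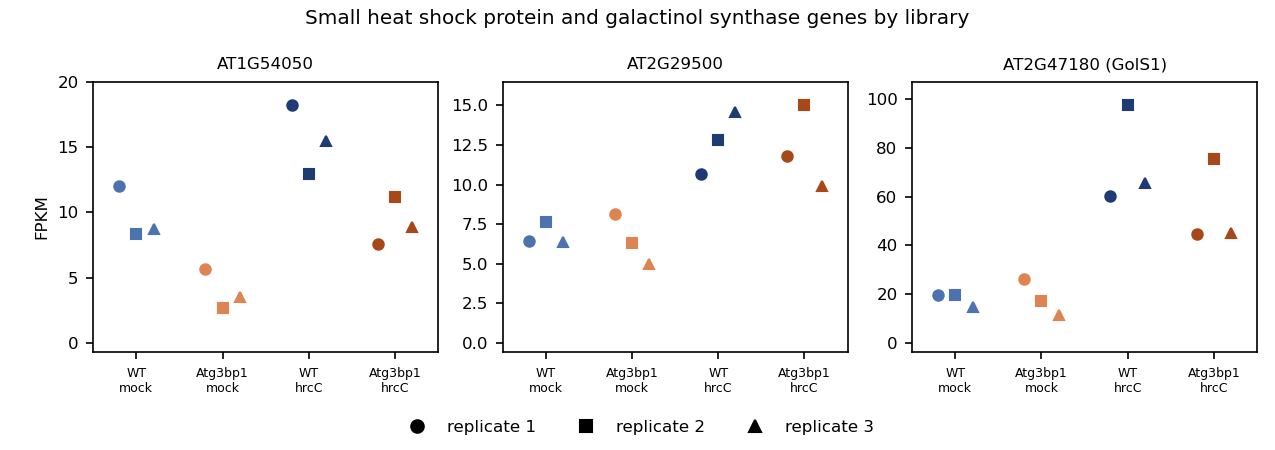
FPKM (y axis) of AT1G54050, AT2G29500 and GolS1 in the 4 groups (x axis), with a symbol for each replicate. GolS1 lies between 11.2 and 26.3 FPKM in the mock libraries and between 44.6 and 97.5 in the hrcC libraries.

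The genes whose pattern was most like that of the 4 tested heat shock genes were chosen by Pearson correlation over the 12 libraries with the mean of the 4 standardized log2 levels. They were AT1G06210 (an ENTH/VHS/GAT family protein, r = 0.93), CYP71B20 (AT3G26180, a cytochrome P450, r = 0.93), RECA3 (AT3G10140, r = 0.92), AT3G17225 (an invertase and pectin methylesterase inhibitor family protein, r = 0.92) and AT1G07280 (a tetratricopeptide repeat protein, r = 0.92). All 5 were highest in the first WT mock library, where CYP71B20 had 22.05 FPKM against a median of 12.8 in the other 11. The mean pattern used to choose them was 2.04 in the first WT mock library and at most 0.84 elsewhere. Their peak in that library thus follows largely from the choice. Without that library the correlations were 0.88, 0.87, 0.81, 0.84 and 0.83 over 11 libraries. Those 11 libraries were also used to choose the 5 genes, so these values are no separate check of the match. None of the 5 is a chaperone of the lists used here. The 4 heat shock genes did not all share the mean pattern. Over the 12 libraries HSP101 had r = 0.59, 0.43 and 0.39 with HSP17.4, HSP18.2 and HSP90.1. Without the first WT mock library these were 0.22, −0.12 and 0.06. The pairs among HSP17.4, HSP18.2 and HSP90.1 had r from 0.59 to 0.70 without it.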

How the data were processed

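Whole-seedling RNA-seq libraries, 12 in 4 groups of 3 biological replicates, were assigned to groups by their labels alone. The authors trimmed reads with Trimmomatic to 100 bases, aligned them to TAIR10 with TopHat and deposited FPKM per replicate calculated with Cufflinks. FPKM are divided by transcript length and mapped fragments, so counts and depth were not recovered.

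Each library was divided by its upper-quartile factor (75th percentile of expressed genes, 0.866 to 1.20). The 17158 genes averaging 1 FPKM or more were fitted as log2(FPKM + 1) with limma 3.58.1 in R 4.3.3, with 4 groups, a variance trend and Benjamini-Hochberg adjustment, and were called at an adjusted p of at most 0.05 and at least 2-fold. The pseudocount understates fold changes of low genes. The test was checked on simulated data. Members, gene lists and tests were chosen with earlier results of these data known. Named genes were the 10 members, called genes of each companion list (up to 4, or its most abundant gene), the 5 nearest patterns, AT5G48650 and AT2G01021. Sequences and coordinates came from RefSeq TAIR10.1 (10 of 10 members matched) with Python 3.11.15, and coding sequences were aligned with Biopython 1.88.

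Same-numbered libraries deviated together within mock (r = 0.37, 0.102 and 0.31 across genes for replicates 1, 2 and 3). This counts as pairing by the rule that each r exceeds 0.1, narrowly for replicate 2. The other comparisons did not meet that rule (r between −0.42 and 0.43). Alternatives were other scalings, pseudocounts and filters, no trend, a replicate block, the groups alone, a term for libraries with high scaling factors, other thresholds, and each library left out. High factors were those above 1.05, in replicates 2 and 3 of WT mock and replicate 1 of WT hrcC. All of these are labelled WT, so that term cannot be separated well from the label.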

Additional observations from a re-analysis of the deposited data

How the results depend on the processing

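With all genes unfiltered, none of the 10 genes was called in any comparison. For HSP21, HSP22 and HSP23.6 the highest rescaled log2(FPKM + 1) values were 0.29, 0.25 and 0.54. Their differences between 2 groups therefore could not reach the limit of 1 on the log2 scale, and this setting could not call them. The 6 below the filter were absent from the calls of every other setting, which therefore could not call them. The 4 that passed were not called with no rescaling, median-ratio or quantile scaling, a pseudocount of 0.1 or 0.5 FPKM, or no trend. Nor were they called with the 2 groups alone, a term for libraries with high scaling factors, or each of 12 libraries left out. An unadjusted p with 2-fold and an adjusted p with no fold limit called none of the 4 either. Testing only genes averaging 5 FPKM left none of the 10. Over all settings, the lowest adjusted p of a tested gene by limma was 0.052, for HSP90.1 after hrcC under the label WT. Between the labels in mock, the lowest for HSP18.2 was 0.060. That mock difference reached −1.35 for HSP18.2 and −1.46 for HSP17.4 over all settings. Without the first WT mock library it was 0.057 for HSP18.2 and 0.078 for HSP17.4. With the replicate number as a block, 0 members were called and the lowest adjusted p of a member by limma was 0.49. For HSP17.4 in mock, where the numbers count as pairs, this block fit gave −0.61 (limma adjusted p = 0.56). The block was shared by all 12 libraries, so it is not a paired test of the mock libraries alone. Among the 4 tested genes, directions turned only when a library was left out, 6 times of 11 on removal of the first WT mock library. With libraries left out in turn, the response of HSP18.2 under the label WT ranged from −0.79 to 0.15. The mock difference between the labels ranged from −1.17 to 0.078 for HSP17.4, from −0.89 to 0.057 for HSP18.2, from −0.41 to 0.034 for HSP90.1 and from −0.31 to 0.11 for HSP101. For HSP101 the difference after hrcC ranged from −0.16 to 0.10 and the interaction from −0.14 to 0.28. A pseudocount of 0.1 FPKM enlarged low genes: the interaction of HSP17.4 went from 1.55 to 3.28 and that of HSP90.1 from 0.89 to 1.73, neither called. Without rescaling the median gene moved by −0.12 between the labels in mock and by −0.15 after hrcC. HSP22 gave no value without the third WT hrcC library, its only one above 0. Listed zeros and levels near 1 FPKM limit the precision, and depth is unknown.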
